A study of Homo sapiens with 3 samples.

Results

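The peaks described here lie in genes whose symbol is ZNF followed by a digit, the systematic name of a large family of human zinc finger genes. They come from easyCLIP of HNRNPA0, an hnRNP protein that binds RNA in the nucleus. In this assay UV light bonds RNA to the protein, RNase I trims it, and the RNA that comes down with the protein is sequenced. The cells were HEK293T, an established human kidney-derived line expressing SV40 large T antigen, of wild-type genotype per the labels. Each 15 cm plate was given 750 ng of vector encoding HNRNPA0 with an HA tag. Crosslinking used 0.3 J/cm2 of 254 nm light, with harvest the next day, and all 3 replicates form 1 group with the same treatment, with no control library used here. The tagged protein came from a vector, in addition to the cells' own HNRNPA0. Replicates were combined once each carried its 3' adapter and shared the later steps. Nothing in the labels says that the replicates came from separate cultures, so every SD below measures the spread between these 3 samples, which may be technical. Peaks report recovered RNA and not RNA levels, so the cell label was not checked against marker genes. For the same reason, a gene with few peaks may have few transcripts or little crosslinking per transcript, and these cannot be told apart. How reads that fit several genes were placed was not stated, so low counts in genes of similar sequence may also reflect that.

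Members were chosen by gene symbol. Each deposited peak carries an Ensembl gene ID, and an ID was tied to the RefSeq protein-coding gene that contains the centres of at least 90% of its peaks. Of 6583 gene IDs in the lists, 135 were tied to a ZNF gene. They gave 189, 201 and 252 peaks in replicates 1, 2 and 3, of 15661, 15486 and 17791 distinct peaks, an interval and strand being counted once in a list. That is 642 of 48938 peaks over the 3 lists. Both the position and the peak call chose these members, so the presence of a peak is a description and carries no test.

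Most ZNF proteins are DNA-binding regulators built from tandem C2H2 zinc fingers, short folds that each hold a zinc ion with a pair of cysteines and a pair of histidines. Many also carry a KRAB domain, which recruits the corepressor TRIM28 and with it histone methylation and heterochromatin proteins, and a well-known task of these is the silencing of transposable elements. The family grew by tandem duplication, which left dense clusters of related genes on chromosome 19, and the fingers of a protein are often encoded by 1 long last exon.

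The bases of 3 of these peaks could be read, because they overlap RefSeq windows around gene starts (GRCh38.p14, the assembly of hg38, the build the peaks are on). All are weak, and they were picked only because such a window covers them, so their bases do not stand for weak ZNF peaks in general. Only the ZNF655 peak lies near the start of its own gene. The windows that cover the other peaks belong to genes on the opposite strand, ZNF529-AS1 for ZNF529 and LOC107985304 for ZNF146. Each was found in 1 replicate, with 3 reads, the lowest read number listed. The read number is the whole number that ends the deposited peak name, taken here as how many reads the peak holds. Letters are in the direction of the RNA, and capitals mark the short stretch that the authors' file sets inside the peak, where the window covers it.
ZNF655: cggccaggccCGCCcctcccctcgg
ZNF529: cggtccacgtggaGCCGggagcctgaggcc
ZNF146: ttgagaggcaccaggacttgggag
The ZNF655 peak is complete, lies on the plus strand at chr7:99558764-99558788 in replicate 2, and has 88.0% G and C with 15 C and 7 G. The ZNF529 bases, at chr19:36573169-36573198 on the minus strand, are 30 of the 49 bases of a peak of replicate 3, with 76.7% G and C. The ZNF146 bases, at chr19:36235703-36235726 on the plus strand, are the last 24 of 61 bases of a peak of replicate 3, with 58.3% G and C. These 3 peaks differ in composition and were not found again in another replicate. Sequences of the stronger peaks were not analysed here.

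Over the whole family, peaks in ZNF genes were mostly weak and, counted by gene, sparse. A peak in any replicate was present in 114 of 511 ZNF genes, 22.3%, against a background of 28.3% over all 19932 nuclear protein-coding genes. This direction did not hold off chromosome 19, where 33.3% of ZNF genes and 29.5% of other protein-coding genes held a peak. By gene length the ZNF share was higher under 10000 bp (11.5% against 10.3%) and from 80000 bp (50.0% against 45.4%). It was lower in the classes between. Replicates 1, 2 and 3 had a peak in 71, 75 and 75 ZNF genes. ZNF genes are 2.56% of protein-coding genes, and they held 1.31% ± 0.105 of the distinct peaks and 1.00% ± 0.0669 of the summed read numbers of nuclear chromosomes (SD, n = 3). The last 2 shares also take in peaks outside protein-coding genes, so they have another base than the first. A further 2 peaks lay where ZNF197 and ZNF35 overlap and count for the family but for neither gene. Per megabase of gene length, without these 2 peaks, ZNF genes had 10.2 ± 1.55 peaks in a replicate. Other protein-coding genes had 11.9 ± 0.853 (SD, n = 3). The ZNF rate was lower in each replicate, but the 2 sets overlap. The summed read numbers of ZNF peaks were 949, 978 and 1232, which is all the depth known here, since reads outside peaks were not analysed here. The read number was 3 in 51.5% ± 5.65 of ZNF peaks, against 43.6% ± 1.70 of peaks in other protein-coding genes, and the values of the replicates were 45.5%, 56.7% and 52.4% against 42.4%, 42.9% and 45.5%. The ZNF share was higher in each replicate, but the 2 sets touch, with 45.5% in replicate 1 of ZNF peaks and in replicate 3 of the others. Read numbers of 10 or more made up 7.57% ± 1.24 of ZNF peaks and 10.2% ± 0.868 of the others (SD, n = 3).

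The peaks were spread unevenly over the genes. Of the 114 genes, 37 held 1 peak over the 3 lists together, 40 held 2 to 4, 18 held 5 to 9 and 19 held 10 or more. The last class is 16.7% of ZNF genes with a peak, against 29.0% of other protein-coding genes with a peak (1601 of 5520). The 5 genes with most peaks held 26.2% of all ZNF peaks and the 15 with most held 50.6%. Peaks came from 3 replicates in 37 genes, from 2 in 33 and from 1 in 44. In 52 of the 114 genes no peak exceeded a read number of 3 in any list. Neither this count nor the split by replicates was made for other protein-coding genes, so neither is read as particular to ZNF genes. The mean highest read number of a gene reached 10 in 6 of 114 ZNF genes, against 519 of 5520 other protein-coding genes with a peak, which is 5.26% against 9.40%.

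Few ZNF peaks recurred. Merging same-strand peaks with an overlap of at least 1 bp gave 526 regions: 446 were seen in 1 replicate, 57 in 2 and 23 in all 3. The 23 are 4.37% of ZNF regions, against a background of 6.01% over all protein-coding regions. They lay in 12 genes, 2.35% of the 511, against a background of 6.11% of protein-coding genes with such a region. The counts depend on the number of lists required: without replicate 1, 2 or 3, and with both remaining lists required, they were 42, 49 and 33 regions in 27, 24 and 15 genes. With an overlap of 50% of both peaks required, 14 regions were left. Taking each list against each other list, 6 pairs in all, 20.5% of ZNF peaks were met by a peak of the second list (17.4% to 25.9%), and 25.3% of peaks in other protein-coding genes (23.2% to 26.4%). The ranges overlap, and 5 of the 6 ZNF values lie below the range of the others.

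Recurrence followed the read number in ZNF genes as in the others. Of ZNF peaks with a read number of 3, 2.71% lay in a region of all 3 replicates (9 of 332), against 3.49% elsewhere. From 5 to 9 reads the shares were 25.4% (33 of 130) and 21.8%. From 10 to 19 they were 50.0% (16 of 32) and 56.7%, and from 20 to 49 they were 81.2% (13 of 16) and 88.1%. At 4 reads they were 3.79% (5 of 132) and 8.40%, with none in replicate 2 of the ZNF peaks. The ZNF share was lower in 4 of these 5 classes and higher from 5 to 9 reads. The 16 ZNF peaks of 20 to 49 reads lay in ZNF24, ZNF664 and ZNF326, most of them in ZNF24. A region found in all 3 replicates adds a peak from each list, and 2 overlapping ZNF664 peaks of 22 reads in replicate 3 both count. The ZNF share at 20 to 49 reads thus describes few sites in few genes.

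**Figure D1:**
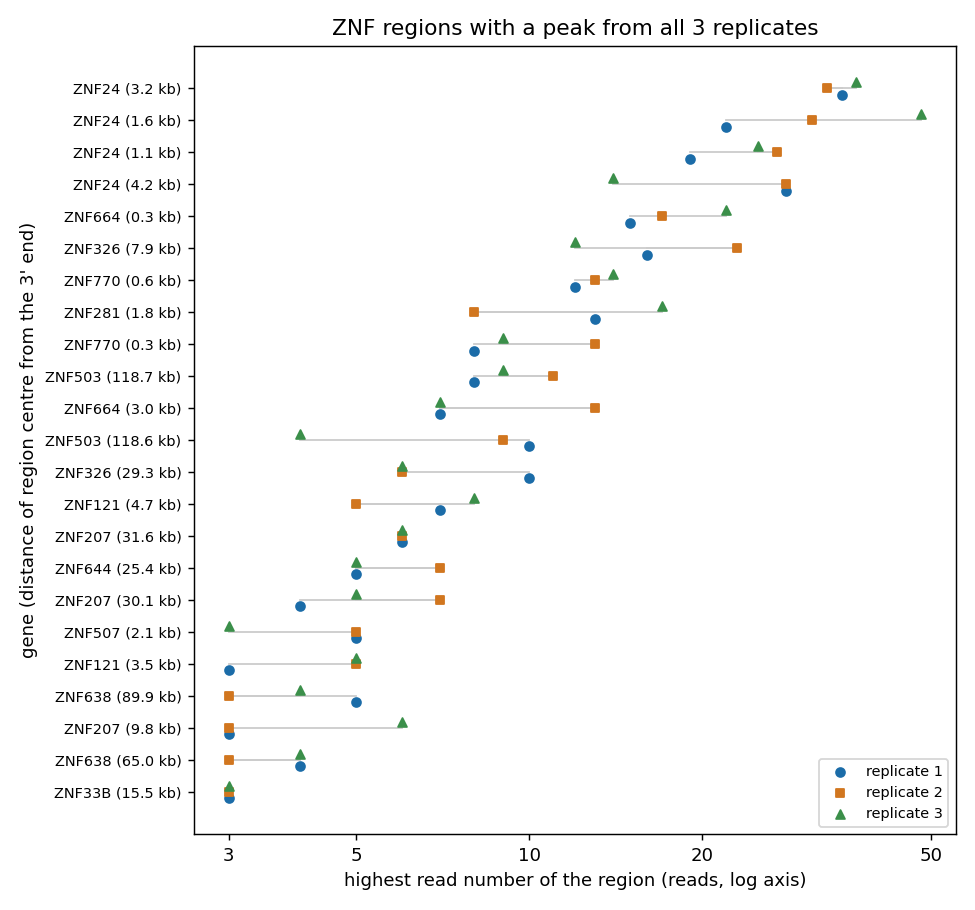
Highest read number in each replicate (x axis, log scale) of the 23 ZNF regions with a peak from all 3 replicates, each row a region with its gene and the distance of its centre from the 3' end in kb. The 4 regions of ZNF24 stand at the top with 14 to 48 reads, and ZNF33B at the bottom has 3 reads in each replicate.

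ZNF24, the gene of a transcription factor with a SCAN domain, held the strongest ZNF peaks in every replicate. The gene (ENSG00000172466.15) lies on chromosome 18 from 35332227 to 35344420 (hg38) on the minus strand and spans 12194 bp. It had 8, 8 and 9 peaks, with highest read numbers of 35, 33 and 48, or 38.7 ± 8.14 (SD, n = 3). By that mean it ranked 41 of 5634 protein-coding genes with a peak, and the 3 highest ZNF peaks of each list all lay in it. Its 4 regions found in all 3 replicates carry most of this signal.

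The region of ZNF24 from 35335288 to 35335471 had read numbers of 35, 33 and 37 and the closest agreement. The region from 35333758 to 35333902 had 22, 31 and 48, the widest spread of the 4. Next to it, the region from 35333294 to 35333425 had 19, 27 and 25. The region from 35336362 to 35336484 had 28, 28 and 14, so replicate 3 was highest in one region of the gene and lowest in another. In every replicate the region with the closest agreement lay above the regions from 35333294 and from 35336362, with 33 as its lowest value against 28 as the highest of both. The region from 35333758 overlaps each of the other 3 in its values, so its place in the order is not settled. All 25 peaks lay within 4916 nt of the 3' end, a stretch of 4862 nt that is 39.9% of the gene, and the rest of the gene held none. The lowest read number among them was 10, although the deposited p-values at 10 reads were 4.58e-06 to 8.39e-06 and 104 of the 114 genes had a peak of 3 reads. Only 1 of 114 ZNF genes and 17 of 5520 others had no listed peak under 10 reads, so weak peaks are not comparable between ZNF24 and its relatives.

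**Figure D2:**
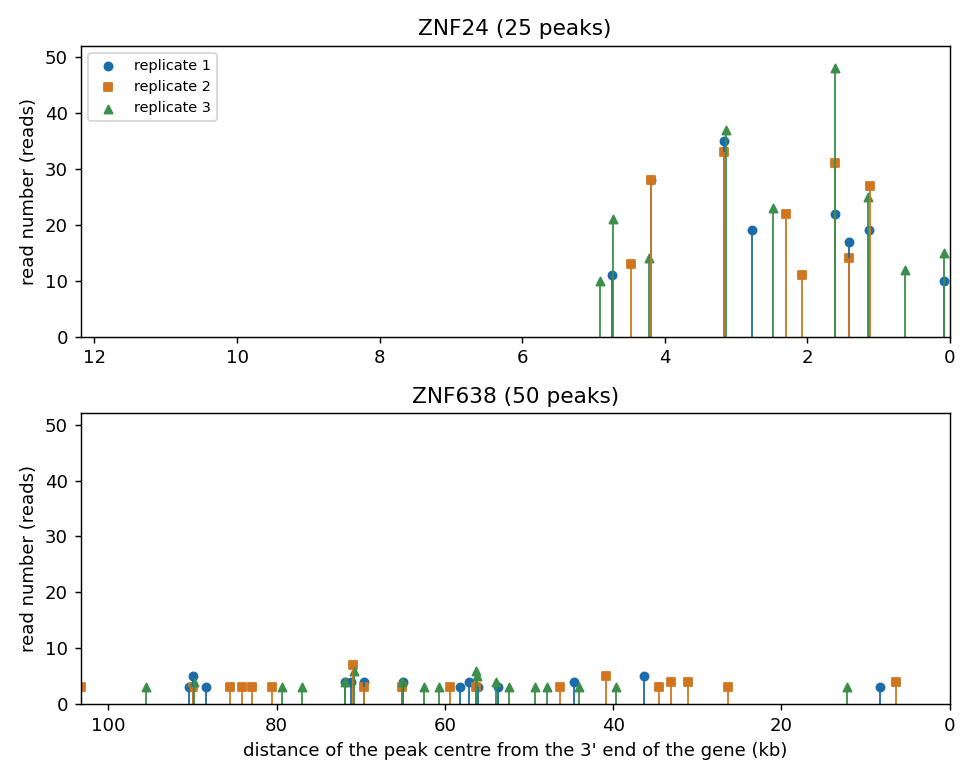
Peaks of ZNF24 (upper panel) and ZNF638 (lower panel) by distance of the peak centre from the 3' end in kb (x axis, 5' end at the left) and read number (y axis), with colours and symbols for the replicates. ZNF24 has 25 peaks of 10 to 48 reads in its 3' part, and ZNF638 has 50 peaks of 3 to 7 reads along nearly the whole gene.

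ZNF638 showed the opposite pattern of many weak peaks. It encodes a nuclear protein that binds cytidine-rich DNA, spans 103280 bp on chromosome 2 from 71331782 to 71435061, and had 14, 18 and 18 peaks, the most of any ZNF gene. Its highest read numbers were 5, 7 and 6, and 30 of its 50 peaks had 3 reads. By number of peaks it ranked 34 of 5634 genes, and by mean highest read number 1131. Of its 41 regions, 2 were found in all 3 replicates, from 71345145 to 71345247 with 5, 3 and 4 reads and from 71369930 to 71370101 with 4, 3 and 4. The stretch from its first to its last peak was 93.9% of the gene, and 35 of its 50 peaks lay in the 5' part before the midpoint. In ZNF638, then, peaks were spread along the transcript and did not gather at the 3' end, where the final 10% held 2.

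Other ZNF genes tied to RNA, mitosis or chromatin differed in where their peaks lay. ZNF207, which encodes a spindle and kinetochore protein that binds BUB3, had 15, 12 and 16 peaks in 31729 bp on chromosome 17, with highest read numbers of 8, 7 and 10. Its region from 32350230 to 32350327, centred 122 nt from the 5' end, had 6 reads in each replicate. A second region from 32351757 to 32351836 had 4, 7 and 5, and one further along, from 32371994, to 32372119 had 3, 3 and 6. Of its 43 peaks, 12 lay in the first 10% of the gene and none in the final 10%. Some of them were called under 2 gene IDs, and 4 peaks of replicate 2 and 4 of replicate 3 overlap another peak of the same list, so its count is partly a repeat.

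ZNF326, a subunit of the DBIRD complex that acts where RNA polymerase II meets newly made messenger RNA, had 7, 5 and 8 peaks on chromosome 1. Its stronger region, from 90027541 to 90027651, had 16, 23 and 12 reads, and the other, from 90006173 to 90006284, had 10, 6 and 6. The first lay 80.4% along the gene and the second 27.5%, so neither lay at an end of the gene. The values of the 2 regions do not overlap.

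ZNF644, whose protein partners with histone methyltransferases, had 5, 11 and 11 peaks over 106732 bp of chromosome 1 and 1 region in all 3 replicates, from 90940572 to 90940755. Its read numbers of 5, 7 and 5 were low, and the strongest peaks of the 3 replicates share no base there, the region being joined through overlap of neighbours. ZNF281, a transcription factor studied in pluripotent cells, spans 5086 bp and had 1 such region, from 200406663 to 200406819 on chromosome 1, with 13, 8 and 17 reads. ZNF503, a transcriptional repressor of development, had 2, from 75398329 to 75398504 and from 75398254 to 75398314 on chromosome 10. The first had 8, 11 and 9 reads and the second 10, 9 and 4. All 9 peaks of ZNF503 lay within 2943 nt near the 5' end of a RefSeq interval of 122192 bp, so their place along the gene depends on how far that interval reaches, and 2 weak peaks of replicate 1 overlap each other.

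The remaining genes with a region in all 3 replicates were ZNF664, ZNF770, ZNF121, ZNF507 and ZNF33B. ZNF664 on chromosome 12 had a region from 124015025 to 124015156 with 15, 17 and 22 reads, centred 336 nt from the 3' end, and another from 124012404 to 124012548 with 7, 13 and 7. Of its 21 peaks, 18 lay in the final 10% of the gene, and they were listed under 3 gene IDs, with 4 peaks of replicate 3 overlapping another of that list. ZNF770 on chromosome 15 had regions from 34978849 to 34978964 with 12, 13 and 14 reads and from 34978599 to 34978706 with 8, 13 and 9. These lay 566 nt and 312 nt from the 3' end, and the 15 peaks of the gene lay within a stretch of 2928 nt near that end. ZNF33B, a KRAB gene on chromosome 10 with a closely similar copy in ZNF33A, had a region from 42589592 to 42589683 with 3 reads in each replicate. How reads that fit both copies were placed was not stated, so the call for ZNF33B is uncertain.

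Ranked by the mean highest read number, ZNF24 (38.7 ± 8.14) was followed by ZNF664 (18.0 ± 3.61), ZNF326 (17.0 ± 5.57), ZNF770 (13.0 ± 1.00), ZNF281 (12.7 ± 4.51) and ZNF503 (10.0 ± 1.00; all SD, n = 3). The lowest ZNF24 value, 33, lies above the highest value of any other ZNF gene in the lists, 23 in ZNF326. Neighbours from ZNF664 to ZNF281 do not differ beyond their spread. Within regions of all 3 replicates, the short stretches set by the authors' caller lay 17 nt apart at the median between the outermost replicates, against 24 nt for other protein-coding regions. In 19 of the 23 ZNF regions the strongest peaks of the replicates shared at least 1 base, and the 4 others were joined through neighbouring peaks, in ZNF121 (2 regions), ZNF644 and ZNF207.

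ZNF peaks gathered toward the 3' ends of genes, as did peaks of other genes. Of 630 peaks in ZNF genes of 5000 bp or more, the final 10% of the gene held 27.8%, 30.3% and 29.0% in replicates 1, 2 and 3, or 29.0% ± 1.25 (SD, n = 3). Other protein-coding genes had 32.1%, 33.4% and 32.2% there. The ZNF values lie below the others in each replicate and the sets do not overlap, but a paired exact permutation test over 3 replicates cannot give a p below 0.25, so none is given. ZNF638 and ZNF207 had 2 of 50 and 0 of 43 peaks there. Without both, which were picked after their values were seen, the ZNF shares were 32.3%, 35.1% and 33.6%, or 33.7% ± 1.42 (SD, n = 3). Leaving out genes with few peaks there must raise the share. No genes were left out of the other set, so no direction is drawn from these values. By gene length the direction also varied. Over the 3 lists the final 10% held 39.3% of ZNF peaks (11 of 28) against 17.8% of others in genes of 5000 bp to under 10000 bp. All 11 lay in ZNF770 (8) and ZNF768 (3). In these short genes the ZNF shares of replicates 1, 2 and 3 were 45.5%, 57.1% and 20%, a wide spread. From 10000 to 20000 bp the shares were 19.6% against 25.5%, and from 20000 to 40000 bp 31.1% against 32.4%. From 40000 to 80000 bp they were 38.3% against 37.4%, and in longer genes 19.5% against 33.0%. ZNF638 alone held 50 of the 169 ZNF peaks of these longer genes. The directions in the shortest and longest classes thus rest in large part on single genes. At the other end, the first 10% held 9.07% ± 1.36 of ZNF peaks against 7.20% ± 0.744 (SD, n = 3), and the replicates were 8.02%, 8.59% and 10.6% against 6.80%, 6.73% and 8.05%. The sets overlap, 8.02% lying under 8.05%, and ZNF207, ZNF503 and ZNF322 supplied 26 of the 58 ZNF peaks there. ZNF322, like other genes named outside the rule in the methods, was chosen after its values were seen.

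Counted in bases, the last 5000 bp held 38.5% ± 0.543 of ZNF peaks and 37.4% ± 1.13 of others (SD, n = 3), and these sets overlap. The last 1000 bp held 9.63%, 8.08% and 8.98% of ZNF peaks in replicates 1, 2 and 3 and 9.91%, 10.7% and 10.2% of others, so the ZNF share was lower in each replicate and the sets do not overlap. In both classes the share in the final 10% was higher at 10 or more reads than at 3 reads. It was 26.9% ± 4.94 for ZNF peaks of 3 reads and 38.3% ± 4.77 for those of 10 or more, against 25.8% ± 1.44 and 40.8% ± 3.96 in other genes. Of the 47 ZNF peaks of 10 or more reads, 25 lay in ZNF24, 5 each in ZNF664 and ZNF326 and 4 in ZNF770. Their share thus reflects where few genes have their peaks. Between 4 and 9 reads the ZNF share was 29.5% ± 2.78 and that of other genes 37.2% ± 1.15 (SD, n = 3). Of the 23 regions in all 3 replicates, 16 lay past the midpoint of the gene, 6 in the final 10% and 4 in the first 10%, the 4 being the pairs in ZNF207 and ZNF503. Gene intervals include introns, and exons, coding sequence and untranslated parts were not told apart here.

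**Figure D3:**
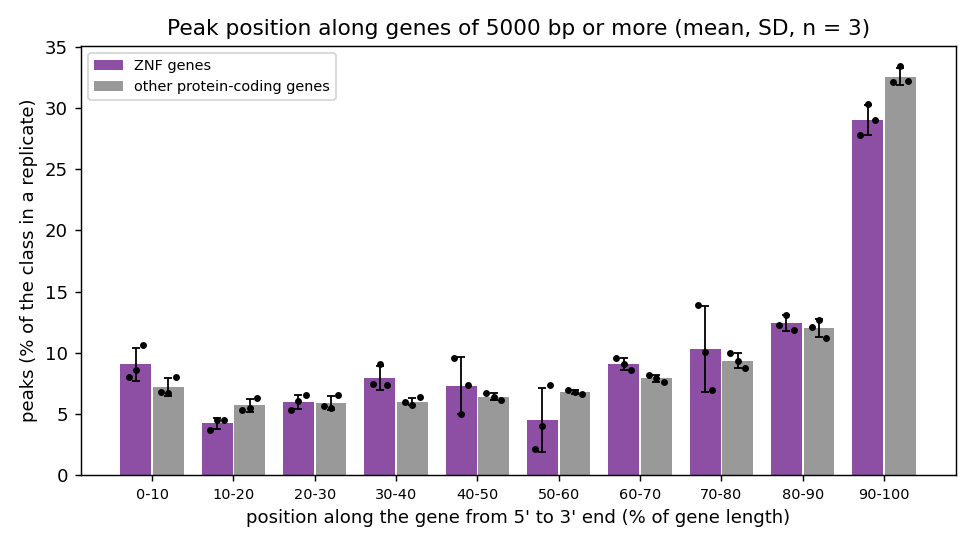
Share of peaks (y axis, percent of the class in a replicate) in each 10% of the gene from 5' to 3' (x axis) for ZNF genes and other protein-coding genes of 5000 bp or more, with bars for means, lines for SD and points for the 3 replicates. The final 10% holds 29.0% of ZNF peaks and 32.6% of the others.

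Chromosome 19 holds nearly as many ZNF genes as all other chromosomes together but few of the peaks. It carries 247 of the 511 genes, 48.3%, and 34.5% of their summed length. Its share of ZNF peaks was 14.8%, 16.4% and 11.1% in replicates 1, 2 and 3, from 28, 33 and 28 peaks. A peak in any replicate was present in 26 of 247 ZNF genes on chromosome 19, 10.5%, and in 88 of 264 elsewhere, 33.3%. In each replicate there were 11.3, 13.4 and 11.3 peaks per 100 ZNF genes on chromosome 19 and 61.0, 63.6 and 84.1 elsewhere, and the sets do not overlap. No ZNF gene of chromosome 19 had a listed peak of 10 or more reads, where the highest were 7, 6 and 8.

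Low counts on chromosome 19 were shared by genes outside the family. Of its 1199 other protein-coding genes, 147 held a peak, 12.3%, against 5373 of 18222 on other chromosomes, 29.5%. Per megabase of gene length, however, ZNF genes on chromosome 19 had 4.12 ± 0.401 peaks in a replicate and the other genes of that chromosome 8.91 ± 0.701, while elsewhere ZNF genes had 13.4 ± 2.44 and other genes 11.9 ± 0.874 (SD, n = 3). These pooled rates carry the mix of gene lengths. Elsewhere ZNF genes had 62.0 against 42.4 under 10000 bp, but 22.9 against 34.3 from 10000 to 20000 bp. From 20000 to 40000 bp they had 14.4 against 31.1. In the longer classes they had 23.1 against 22.0 and 7.13 against 6.34. Off chromosome 19 the direction between ZNF and other genes thus depended on length. Among genes of 20000 to 40000 bp, 11.2% of ZNF genes on chromosome 19 held a peak in any replicate and 11.0% of other genes there, against 23.6% and 34.4% on other chromosomes. Among genes of 40000 to 80000 bp the shares were 9.09% (3 of 33) and 26.3% on chromosome 19 and 55.1% (27 of 49) and 41.6% elsewhere. Of 28 ZNF genes under 10000 bp on chromosome 19 none held a peak, while 7 of 33 elsewhere did. The gap between chromosome 19 and the rest thus appeared in every length class for ZNF genes. The parts played by RNA levels and by the placement of reads that fit several genes were not tested.

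**Figure D4:**
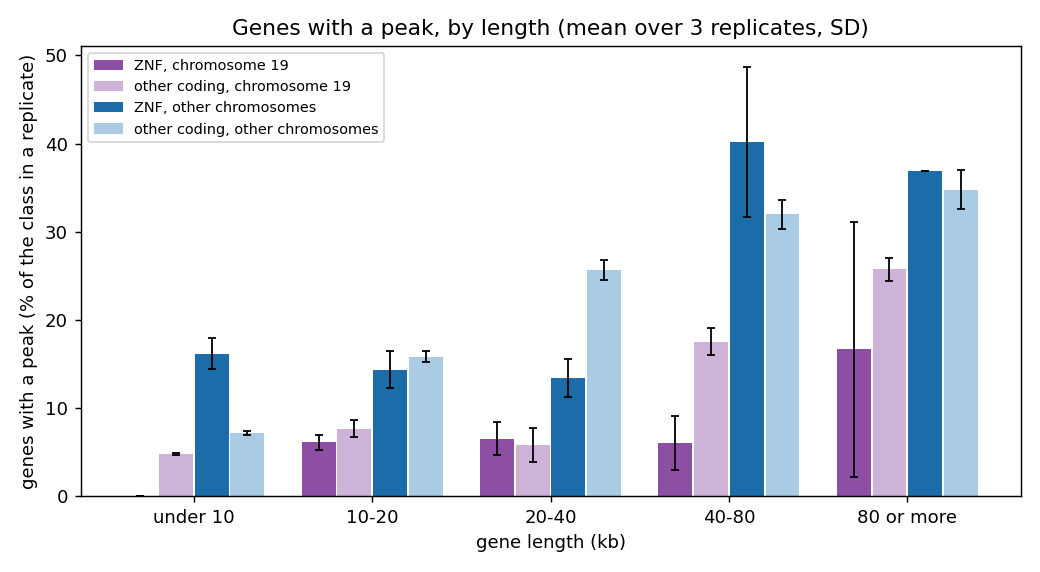
Share of genes with a peak (y axis, percent, mean over 3 replicates with SD) by gene length (x axis, kb) for ZNF and other protein-coding genes on chromosome 19 and on other chromosomes. ZNF genes of chromosome 19 lie below ZNF genes of other chromosomes in all 5 length classes.

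With neighbours no more than 500000 bp apart, 236 of the 247 ZNF genes of chromosome 19 fell into 11 clusters, numbered here along the chromosome. In these, 24 genes, 10.2%, held 72 peaks, and 9 clusters held at least 1. With a read number of 5 or more required, 3 clusters held a peak. The 86 other protein-coding genes that lie inside the clusters held a peak in 7 cases, 8.14%.

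The second cluster, from 8509678 to 9786160, owed most of its peaks to 1 gene. It holds 13 ZNF genes, of which 5 had a peak, or 38.5%, the highest share of any cluster. It had 10, 10 and 11 peaks in replicates 1, 2 and 3. ZNF121, a C2H2 gene that spans 24176 bp on the minus strand, supplied 23 of these 31 peaks. Its regions in all 3 replicates ran from 9564848 to 9565110 with 7, 5 and 8 reads and from 9563680 to 9563886 with 3, 5 and 5. Of its 23 peaks, 22 lay past the midpoint of the gene. The other genes of the cluster with peaks were ZNF562 with 3, ZNF426 and ZNF561 with 2 each and ZNF559 with 1.

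The sixth cluster, from 36182060 to 37779586, had 6 of 26 genes with a peak and 3, 5 and 5 peaks. ZNF146, a protein made almost wholly of zinc fingers, held 6 of the 13, with highest read numbers of 4, 6 and 4. The eleventh cluster, from 57191500 to 58489533 near the end of the long arm, had 4 of 43 genes with a peak and 3, 5 and 2 peaks, of which ZNF460 held 6. No region of the sixth or the eleventh cluster was found in all 3 replicates. In the clusters from 43530835 to 56671757, the eighth to the tenth, 2 of 79 genes held a peak, and the first and the tenth held none. Outside the clusters, ZNF507 on chromosome 19 had 7, 5 and 4 peaks and a region from 32385494 to 32385597 with 5, 5 and 3 reads. ZNF121 and ZNF507 together held 39 of the 89 ZNF peaks of the chromosome and its 3 regions of all 3 replicates.

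**Figure D5:**
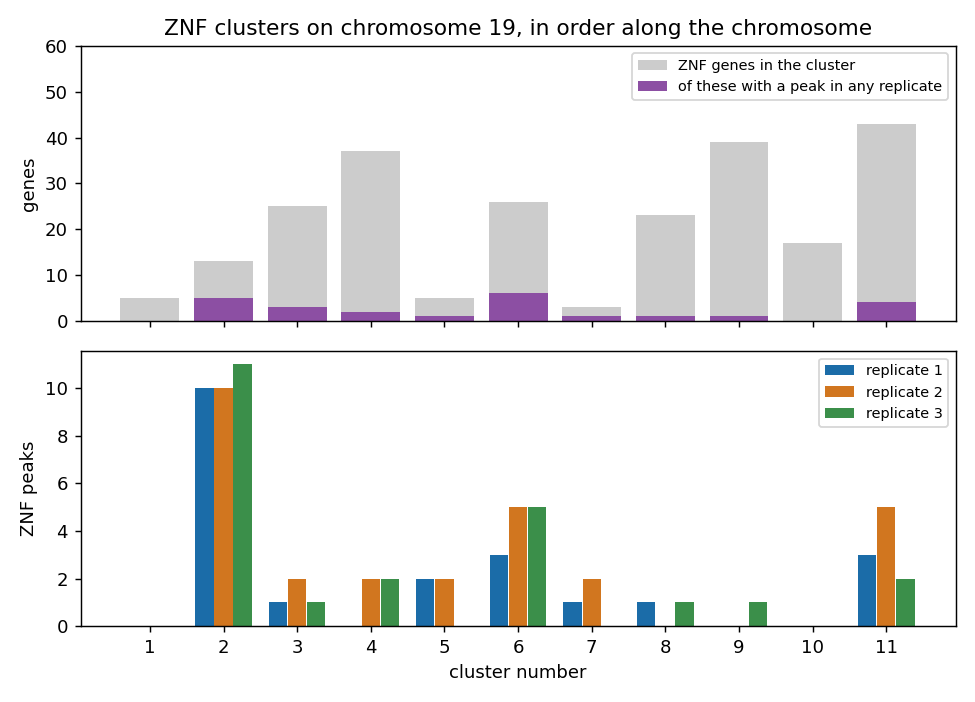
ZNF clusters of chromosome 19 in order along the chromosome (x axis), with the number of ZNF genes and of those with a peak in any replicate (upper panel) and the number of peaks in each replicate (lower panel). The second cluster had 10, 10 and 11 peaks, and the first and the tenth had none.

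Elsewhere the members were scattered. Chromosome 7 had 10 of 35 ZNF genes with a peak, chromosome 16 had 7 of 30, chromosome 1 had 6 of 21 and chromosome 15 had 6 of 7. Over all chromosomes but 19 it was 88 of 264 ZNF genes, 33.3%, and the background over all protein-coding genes was 28.3%. Shares over all genes of each chromosome were not counted, so no chromosome is read as enriched, and the 7 genes of chromosome 15 are few. Regions of all 3 replicates lay on chromosomes 1, 2, 10, 12, 15, 17, 18 and 19. On chromosome 7 no such region was found despite 9, 12 and 24 peaks.

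Genes whose proteins work with KRAB zinc finger proteins were counted for comparison, from a list chosen with earlier results of these data known. All 20 listed corepressor genes had a peak in some replicate and 6, or 30.0%, had a region in all 3, beside the backgrounds of 28.3% and 6.11%. These genes are longer, with a median of 42594.5 bp against 24012.5 bp over all protein-coding genes, and of all genes from 40000 to 80000 bp 41.0% held a peak and 317 of 3201 a region in all 3. CBX5, which encodes heterochromatin protein 1 alpha, held 4 such regions, with highest read numbers of 56, 62 and 48. TASOR, a subunit of the HUSH silencing complex, held 3, with 11, 9 and 10. CBX1 and CBX3 held 2 each and ATF7IP and HDAC2 held 1. CHD3, DAXX, MORC2, MPHOSPH8, SETDB1 and UHRF1 had peaks in 1 replicate only, with 3 or 4 reads. TRIM28 itself had 5, 4 and 1 peaks with highest read numbers of 5, 10 and 4 and no region of all 3 replicates, and SETDB1, the methyltransferase of this pathway, had 1 peak of 3 reads. Of 137 genes with symbols of other zinc finger families (ZBTB, ZSCAN, ZKSCAN, ZFP, ZIC, KLF, SP, GLI, EGR and IKZF), 44 held a peak, 32.1%, and 6 a region of all 3 replicates, 4.38%. The symbols also take in SP100, SP110, SP140, SP140L and ZFP36, which are not C2H2 genes and held no peak, and without them the shares are 33.3% and 4.55% of 132 genes. The strongest of these was ZBTB44, with 15, 19 and 30 reads and 3 regions. Of 9 genes with symbols close to the rule, ZNFX1 and the ZNRF and ZNHIT genes, 3 held a peak and none a region of all 3 replicates.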

How the data were processed

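The authors deposited 1 peak list per replicate (hg38), so peaks were called per sample. Per the submitters' processing notes, deepTools and bedtools were used (no versions). The adapters carried random bases as molecular identifiers, per the labels' protocols. Whether reads were collapsed by them, the aligner and the peak caller: not given in the sources used here. Every deposited line holds a p-value from the authors' caller, all under 0.05, and a name ending in a whole number, read here as a read number. Python 3.11.15 with pandas 2.3.3 and numpy 2.4.6 was used. The RefSeq table gave no Ensembl IDs, so IDs were tied to genes by position. Strand came from the RefSeq promoter table and held for all 119 of 119 ZNF IDs it covers. Readthrough symbols (6 of 517) were set aside. Merging and naming were tested on simulated data. Named genes are those with a region in all 3 replicates, the 5 with most peaks, those with the 3 highest peaks of a list and those of the 3 chromosome 19 clusters with most genes with a peak. Members and lists were chosen with earlier results of these data known, so no test was run over members. Alternatives changed 1 choice at a time.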

Additional observations from a re-analysis of the deposited data

How the results depend on the processing

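Of 93 values recomputed under other settings, 62 stayed within 1 SD of the replicates or 1.5 times the count and 31 moved. When the 50% of peaks with the lowest p-values in a list were kept, there were 83.0 ZNF peaks per replicate in place of 214, in 56 genes in place of 114, and the shares were 34.3% in the final and 11.1% in the first 10% of the gene, 11.0% of peaks and 11.5% of genes with a peak on chromosome 19 (reported: 14.1% and 19.9%), and 30.7% overlapped by another replicate. With a read number of 5 or more there were 59.3 peaks in 38 genes, with 34.9% in the final and 11.1% in the first 10%, 10.8% of peaks and 12.1% of genes on chromosome 19, and 3 clusters with a peak in place of 9. With 10 or more there were 16.0 peaks in 11 genes, with 38.3% and 4.34% at the ends and 0 peaks and 0 genes on chromosome 19. An overlap of 50% of both peaks gave 14 regions and a replicate overlap of 13.6%, and 2 or more replicates gave 80 regions in 37 genes. With a replicate left out, the regions ranged from 33 to 49 and their genes from 15 to 27, since 2 lists then sufficed. Regions counted once put 7.57% in the first 10%, and equal weight for each gene put 32.1% in the final 10%. Without ZNF638 and ZNF207, also chosen after the data were seen, 33.7% lay in the final 10%, a rise fixed by leaving out genes with few peaks there. Counting overlapping peaks of a list once, chosen after the data were seen, gave 211 peaks per replicate and 23 regions. For the other moves the cause was not tested. No paired analysis was possible because 1 group of samples has no second group to pair with. ZNF and other genes are paired within each list, where 3 replicates cannot give a p below 0.25. A read number of 3 is the lowest listed, so weaker signal in ZNF genes cannot be seen.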
